A study of Mus musculus with 5 samples.

Results

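Glycolysis and the response to low oxygen are described here through 36 genes, 20 of them for glucose uptake, glycolysis and lactate and 16 for oxygen sensing and its target genes. They are a fixed list of symbols, drawn up with earlier results of these data known, and map to 37 of the 56691 gene IDs in the count table, since Aldoa has a second ID. RNA was sequenced from keratinocytes of mouse back skin at 28 days of age, and the question was how cells labelled Lrig1 positive differ from the basal population. The 2 bulk libraries hold the whole population, labelled WT and epidermal basal cells. The 3 GFP libraries hold cells sorted for GFP, with the genotype given as Lrig1 positive and the cell type as epidermal stem cells. Lrig1 encodes a membrane protein that dampens signalling of EGF family receptors, and cells that express it sit in the upper hair follicle. The sources used here give neither the reporter allele nor the sort gates. Bulk 1 carries the same title number as GFP 1, and bulk 2 the same as GFP 2, whereas GFP 3 has a number of its own.

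Glycolysis splits glucose into pyruvate in the cytosol and yields ATP without oxygen, and lactate dehydrogenase returns the NAD that the pathway needs to keep running. When oxygen falls, prolyl hydroxylases of the EGLN (PHD) family stop marking HIF alpha proteins for destruction. HIF alpha then pairs with ARNT on DNA that carries the core letters ACGTG or GCGTG and raises glucose transporters, glycolytic enzymes, VEGF and many other genes. Epidermis has no vessels of its own and is known for mild hypoxia and strong lactate production. HIF1A protein is set mainly by its breakdown, so its messenger RNA does not report its activity.

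The promoter windows show which of these genes carry the HIF core next to their start. They are shown for the 5 of the 36 genes with an unadjusted edgeR p under 0.05 and for Hilpda, the 1 gene of the surrounding pathways that rose in the sorted cells. Each is the 250 bases before a RefSeq transcription start (build GRCm38.p6), 5′ to 3′ on the gene's strand, with each ACGTG or GCGTG on either strand in capitals and overlapping matches run together. Slc2a1 lies at chr4:119108495-119108744 (+), Slc16a3 at chr11:120948817-120949066 (+), Car9 at chr4:43506776-43507025 (+), P4ha1 at chr10:59323046-59323295 (+), Bnip3 at chr7:138909507-138909756 (-) and the second of the Hilpda starts at chr6:29272376-29272625 (+).
Slc2a1: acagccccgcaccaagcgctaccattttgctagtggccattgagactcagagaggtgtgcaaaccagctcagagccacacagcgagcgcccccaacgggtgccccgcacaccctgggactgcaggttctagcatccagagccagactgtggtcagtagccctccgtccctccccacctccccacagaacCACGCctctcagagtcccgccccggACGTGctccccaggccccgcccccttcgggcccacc
Slc16a3: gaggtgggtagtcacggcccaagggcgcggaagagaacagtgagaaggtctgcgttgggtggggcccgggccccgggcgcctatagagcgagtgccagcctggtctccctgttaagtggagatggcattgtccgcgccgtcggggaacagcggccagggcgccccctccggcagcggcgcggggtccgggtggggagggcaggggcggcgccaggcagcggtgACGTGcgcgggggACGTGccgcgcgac
Car9: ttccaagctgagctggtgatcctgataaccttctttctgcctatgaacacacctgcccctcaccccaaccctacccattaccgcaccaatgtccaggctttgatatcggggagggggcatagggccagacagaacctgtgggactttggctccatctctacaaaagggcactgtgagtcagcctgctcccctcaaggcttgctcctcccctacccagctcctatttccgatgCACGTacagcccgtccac
P4ha1: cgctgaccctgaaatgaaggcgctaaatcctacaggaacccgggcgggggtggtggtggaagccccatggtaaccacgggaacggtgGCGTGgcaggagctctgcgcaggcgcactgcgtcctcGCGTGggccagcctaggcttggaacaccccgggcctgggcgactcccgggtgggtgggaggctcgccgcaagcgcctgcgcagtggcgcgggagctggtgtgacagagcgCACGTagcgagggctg
Bnip3: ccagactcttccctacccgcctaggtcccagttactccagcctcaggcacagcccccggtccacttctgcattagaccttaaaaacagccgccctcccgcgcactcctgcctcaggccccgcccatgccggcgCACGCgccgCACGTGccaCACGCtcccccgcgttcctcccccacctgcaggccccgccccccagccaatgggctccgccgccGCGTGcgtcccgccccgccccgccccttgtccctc
Hilpda: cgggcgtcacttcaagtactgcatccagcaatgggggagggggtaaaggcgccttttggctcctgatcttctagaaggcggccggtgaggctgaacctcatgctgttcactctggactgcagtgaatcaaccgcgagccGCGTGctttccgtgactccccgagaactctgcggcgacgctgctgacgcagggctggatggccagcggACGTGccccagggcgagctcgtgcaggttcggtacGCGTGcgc
Bnip3 has 5 matches, P4ha1 and this Hilpda window have 3 each, Slc2a1 and Slc16a3 have 2 each and Car9 has 1. The other Hilpda start, which lies further upstream, has 0 in its window.

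Of the 20 glycolysis genes, 18 (90 percent) had a match before at least 1 of their starts, as did 14 of the 15 hypoxia genes with a window (93.3 percent). Ndrg1 was not matched. The share was 58.2 percent of the 12163 tested genes with a window and 41.5 percent of all 27025 genes. Counted by window, 26 of 33 for glycolysis (78.8 percent) compare with 52.6 percent of the windows of tested genes and 38.6 percent of all windows. These genes include known HIF targets, genes with several starts have more chances to match, and a match is not evidence of binding. The windows of Gpi1 and Tpi1 had no match among the glycolysis genes, and that of Car12 had none among the hypoxia genes.

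The libraries held 56829330 to 105887450 counts, and 18583 genes could be tested, all 36 of these among them. Lrig1 itself had 163 and 155 CPM (counts relative to the library total, scaled by TMM) in bulk 1 and 2 and 210, 226 and 213 CPM in GFP 1, 2 and 3, a log2 difference of 0.44 ± 0.18 (SE; edgeR adjusted p = 0.292; 0.00676 with the title number as a block). GFP 3 stands apart, with 53714 counts of Xist, the RNA of the inactive X chromosome, against 0 to 8 in the other libraries. It also has 62 counts of the Y-linked Ddx3y against 1750 to 4462. By these genes GFP 3 reads as female and both bulk libraries as male. The part of sex in the differences below was not tested. The bulk libraries held other cells: 17 hair matrix and inner root sheath genes summed to 1991 and 3743 CPM there (library size scaling) and to 71.8 to 78.4 CPM in the GFP libraries, and all 17 passed the test as lower. The sums were 29420 and 35800 against 11230 to 15890 CPM for 20 suprabasal genes, 134 and 327 against 10.03 to 18.2 CPM for 12 melanocyte genes, and 167 and 185 against 11.95 to 18.9 CPM for 12 T cell genes, of which Ptprcap was at 0 in all GFP libraries. The part of these cells in the differences below was not tested. In such mixed samples, fewer cells of a type and less RNA per cell cannot be told apart.

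By the edgeR quasi-likelihood test of GFP against bulk, 0 of the 20 glycolysis genes and 0 of the 16 hypoxia genes passed an adjusted p of 0.05, where 5.28 percent of all tested genes did (0.145 percent as higher, 5.14 percent as lower). At an unadjusted p under 0.05 there were 5, namely Slc2a1, Slc16a3, Car9, P4ha1 and Bnip3, all higher in GFP. By that rule 15.8 percent of all tested genes passed in either direction and 4.28 percent as higher. DESeq2 called 2 of the 36 as higher, Slc2a1 (adjusted p = 0.0417) and P4ha1 (adjusted p = 0.0416), where it called 8.06 percent of all genes and 1.01 percent as higher. Limma-voom called 0 of them, where it called 5.52 percent of all genes. The log2 difference was above 0 for 31 of the 36, against 54.4 percent of all tested genes, with a median of 0.26 against 0.05. Other lists shifted as far or further: 12 of 13 basal layer genes were above 0 (median 0.57), as were 14 of 15 early response genes of cell dissociation (median 0.34) and 11 of 12 cell cycle genes (median 0.35). EdgeR called 0 of each, with 5, 1 and 3 at an unadjusted p under 0.05, and DESeq2 called 2, 1 and 1. The basal layer genes summed to 24930 and 28310 CPM in bulk and 36190 to 41540 CPM in GFP (library size scaling), and the part of these shifts in that of the 36 genes was not tested. Scaled by library size alone, 26 of 36 were above 0, with Hk1, Pfkm, Pfkfb3, Pgam1 and Eno1 on the other side, while the median of all genes moved to -0.07. Under both scalings 27 of the 36 lay above the median of all genes.

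With the title number as a replicate block, which compares GFP 1 with bulk 1 and GFP 2 with bulk 2 and takes nothing from GFP 3, edgeR called 17 of the 36. It called 8 glycolysis genes as higher and 1 as lower, and 8 hypoxia genes as higher, where 16.4 percent of all genes were called higher and 19.7 percent lower. When the trend with transcript length and GC content was removed as well, it called 8 and 9 as higher and 0 as lower, where 17.9 percent of all genes were called higher and 16.6 percent lower (36 percent in either direction with the block alone, 34.5 percent with both). The block fit has 1 residual degree of freedom, and the labels do not state that a number names an animal. Nor do they say that the libraries come from separate animals, so that the p-values measure the spread between these libraries only. In the pair of bulk 1 and GFP 1, the median log2 difference was 0.44 for the glycolysis genes and 0.31 for the hypoxia genes, with 16 of 20 and 15 of 16 above 0. In the pair of bulk 2 and GFP 2, the medians were 0.15 and 0.42, with 15 of 20 and 16 of 16 above 0. All tested genes had medians of 0.01 and -0.01 in these pairs.

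The groups did not overlap for 16 of the 36 genes. Among the glycolysis genes, all GFP libraries were above both bulk libraries for 6 of 20 (Slc2a1, Pfkp, Pfkfb4, Pgk1, Pkm and Slc16a3) and below them for Aldoc alone. Among the hypoxia genes this held for 9 of 16 above (Hif1a, Egln1, Vegfa, Car9, Car12, P4ha1, Bnip3, Ndrg1 and Kdm3a) and for 0 below. Over all tested genes, the GFP libraries were all above for 14.6 percent and all below for 18.5 percent. The plot by library shows the spread of each gene around the mean of the bulk libraries.

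**Figure D1:**
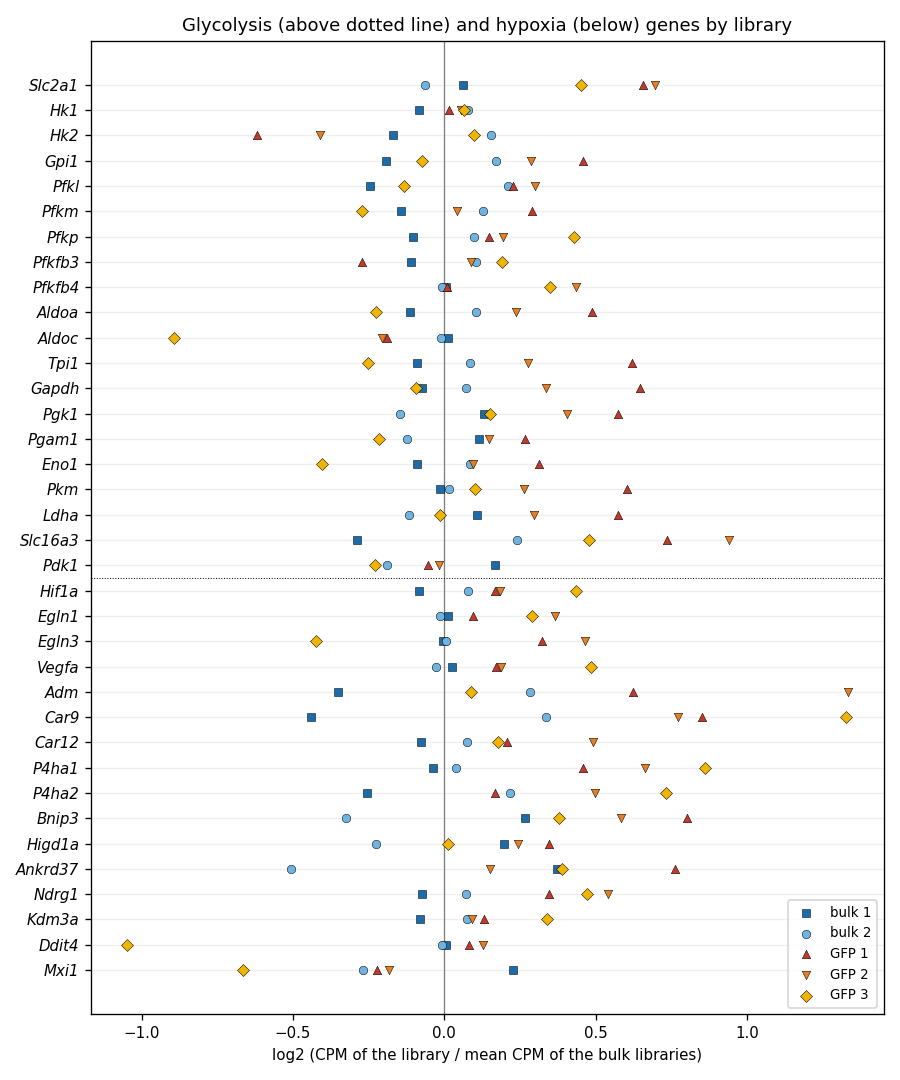
Level of each of the 36 genes in each library, as log2 of its CPM over the mean CPM of the 2 bulk libraries (vertical line), with glycolysis genes above the dotted line and hypoxia genes below it. For 15 genes all 3 GFP libraries (triangles and diamonds) lie to the right of both bulk libraries (squares and circles).

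Glucose enters keratinocytes mainly through GLUT1, the transporter encoded by Slc2a1. Its level was 215 and 197 CPM in bulk 1 and 2 and 325, 333 and 281 CPM in GFP 1, 2 and 3. All GFP libraries were above both bulk libraries, and the log2 difference was 0.61 ± 0.20 (SE; edgeR adjusted p = 0.174). With the replicate block Slc2a1 rose by 0.68 (edgeR adjusted p = 3.24e-05). Per kilobase of transcript, Slc2a1 made up 76.2 percent ± 0.316 (SD, n = 2) of the level of 6 glucose transporter genes in bulk and 78.2 percent ± 1.94 (SD, n = 3) in GFP.

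Hexokinases trap glucose as glucose 6-phosphate. Hk1, the housekeeping form, had 135 and 151 CPM in bulk and 144 to 149 CPM in GFP, so that the GFP libraries lay between the bulk libraries. Hk2, the form induced by insulin and hypoxia, had 50.5 and 63.2 CPM in bulk 1 and 2 and 37.0, 42.8 and 60.9 CPM in GFP 1, 2 and 3. GFP 3 overlapped the bulk libraries, and the log2 difference was -0.28 ± 0.25 (SE; edgeR adjusted p = 0.648). With the replicate block Hk2 was the 1 gene of the 36 that fell (log2 -0.51, edgeR adjusted p = 0.00237), a call that was lost when the trend with transcript length and GC content was also removed (adjusted p = 0.0726). Per kilobase, Hk1 made up 76.1 percent ± 1.38 (SD, n = 2) of hexokinase levels in bulk and 80.3 percent ± 3.88 (SD, n = 3) in GFP, and Hk2 nearly all of the rest.

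Phosphofructokinase commits sugar to glycolysis, and its 3 subunit genes overlapped between the groups except for the platelet form Pfkp. Pfkp had 206 and 237 CPM in bulk and 245, 253 and 298 CPM in GFP 1, 2 and 3 (log2 0.26, edgeR adjusted p = 0.594). Pfkl, the liver form, had 86.7 and 119 CPM in bulk and 93.8 to 127 CPM in GFP, and Pfkm, the muscle form, 24.5 and 29.5 CPM against 22.4 to 33.0 CPM. Per kilobase, Pfkp was the main subunit in every library, with 57.6 and 61.0 percent of the family in bulk and 57.5 to 68.6 percent in GFP. Pfkfb3 and Pfkfb4 make the enzymes that set fructose 2,6-bisphosphate, the activator of phosphofructokinase. Pfkfb3 lay at 11.0 to 15.2 CPM in all libraries, and Pfkfb4 at 5.05 and 5.10 CPM in bulk and 5.10 to 6.86 CPM in GFP, where GFP 1 was level with bulk 1, with log2 differences of 0.02 and 0.28 (edgeR adjusted p = 0.982 and 0.655).

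Levels of the enzymes also differed between libraries of a group. Of the 20 glycolysis genes, 10 (50 percent) were highest in GFP 1 and 8 (40 percent) lowest in GFP 3. Among the 10 were 9 enzyme genes between glucose 6-phosphate and lactate (Gpi1, Aldoa, Tpi1, Gapdh, Pgk1, Pgam1, Eno1, Pkm and Ldha), a set that leaves out the phosphofructokinase genes and Aldoc. Of those, Pfkm was highest in GFP 1 too, Pfkl in GFP 2, Pfkp in GFP 3 and Aldoc in bulk 1. GFP 1 was highest for 25.5 percent of all tested genes. In GFP 3, 5 of the 9 were lowest, as were 21.9 percent of all tested genes. The summed level of the 9 was 3133 and 3381 CPM in bulk 1 and 2, and 4750, 3919 and 3042 CPM in GFP 1, 2 and 3. GFP 1 and GFP 2 were thus above both bulk libraries and GFP 3 was below both. Once the trend with length and GC content was taken out, 8 of the 9 were highest in GFP 1 (28.6 percent of all genes were), and the sums were 3255 and 3322 CPM in bulk and 4623, 3917 and 3264 CPM in GFP 1, 2 and 3, with GFP 3 between the bulk libraries.

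**Figure D2:**
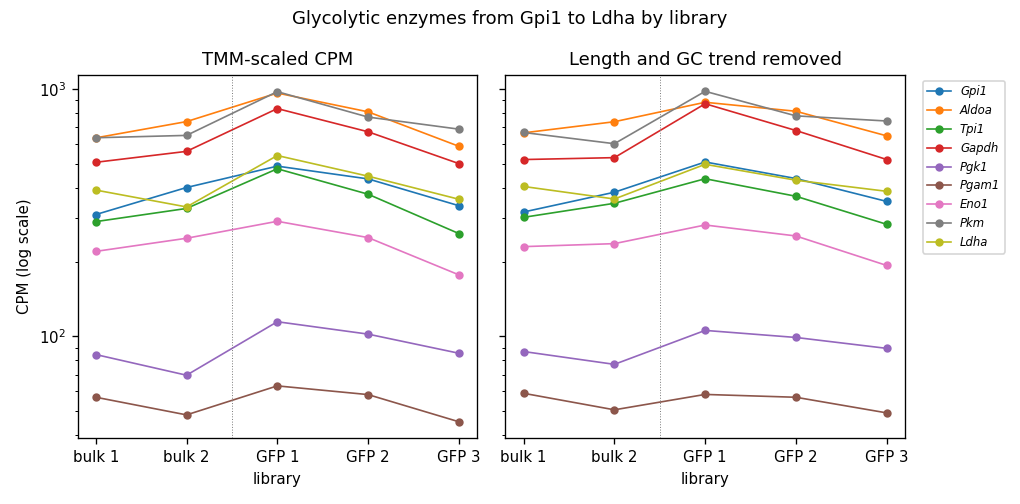
CPM (log axis) of the 9 enzymes from Gpi1 to Ldha in each library, scaled by TMM (left) and after removal of the length and GC trend (right); lines join the values of a gene and stand for no order. On the left all 9 peak in GFP 1, and on the right all but Pgam1.

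Gapdh, which oxidizes glyceraldehyde 3-phosphate, had 506 and 560 CPM in bulk 1 and 2 and 835, 672 and 500.1 CPM in GFP 1, 2 and 3. GFP 3 was below both bulk libraries, and the log2 difference was 0.33 (edgeR adjusted p = 0.620). Tpi1, the triose isomerase, ran the same way, with 291 and 329 CPM in bulk and 477, 376 and 261 CPM in GFP. Eno1, an enolase, had 221 and 250 CPM in bulk and 292, 251 and 178 CPM in GFP, a log2 difference of 0.03 that changed sign without GFP 1. Its counts depend on how reads shared with the near-identical Eno1b were assigned.

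Pgk1 and Pkm, the enzymes that yield ATP, were the ones of these 9 whose groups did not overlap. Pgk1 had 84.5 and 69.7 CPM in bulk 1 and 2 and 115, 102 and 85.5 CPM in GFP 1, 2 and 3 (log2 0.39, edgeR adjusted p = 0.429). Pgk1 is X-linked, and GFP 3, the library with high Xist, was the lowest of the GFP libraries. GFP 3 was also the lowest of them for the other genes of the 9, which are autosomal. The part of X linkage was not tested. Pkm, pyruvate kinase, had 636 and 650.1 CPM in bulk and 977, 771 and 689 CPM in GFP (log2 0.34, edgeR adjusted p = 0.569). With the replicate block Gapdh, Pgk1, Tpi1, Pkm, Ldha and Gpi1 rose, by 0.38 (Gpi1) to 0.50 (Pgk1) on the log2 scale. Their edgeR adjusted p ran from 0.00224 (Pgk1) to 0.0319 (Gpi1). That fit has 1 residual degree of freedom and called 16.4 percent of all genes as higher. Without the block none of these genes passed in edgeR. With block and trend removal together, Gapdh, Pgk1, Pkm and Gpi1 were called, while Tpi1 (adjusted p = 0.0780) and Ldha (adjusted p = 0.125) were not. Of all genes, 17.9 percent were called higher in this second fit.

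Aldolase cleaves fructose 1,6-bisphosphate, and Aldoa was the most abundant of the 36 genes per kilobase (444 CPM per kilobase in bulk and 508 in GFP). Aldoa held 98.0 percent ± 0.228 (SD, n = 2) of aldolase levels per kilobase in bulk and 98.7 percent ± 0.122 (SD, n = 3) in GFP, at 635 and 739 CPM in bulk and 588 to 964 CPM in GFP. The second ID of this symbol had under 1.1 CPM in each library. Aldoc, the brain form, had 24.8 and 24.4 CPM in bulk and 21.5, 21.3 and 13.2 CPM in GFP 1, 2 and 3, lower in every GFP library (log2 -0.39, edgeR adjusted p = 0.518).

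Lactate leaves the cell through monocarboxylate transporters. Slc16a3 (MCT4), the high-capacity exporter and a HIF target, had 13.8 and 19.9 CPM in bulk 1 and 2 and 28.01, 32.3 and 23.4 CPM in GFP 1, 2 and 3. All GFP libraries were above both bulk libraries, with a log2 difference of 0.73 ± 0.24 (SE; edgeR adjusted p = 0.179). It was the 1 gene of the 36 that passed once the length and GC trend was removed (log2 0.91, edgeR adjusted p = 0.0457), in a fit that called 5.84 percent of all genes, 0.42 percent as higher and 5.42 percent as lower. In the block fit it rose by 0.86 (edgeR adjusted p = 4.65e-07). Per kilobase, Slc16a1 (MCT1) was still the most abundant of 3 transporters, with 51.6 and 70.7 percent in bulk and 59.6 to 65.2 percent in GFP, against 22 and 36.3 percent and 30.5 to 35.6 percent for Slc16a3.

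Ldha, which turns pyruvate into lactate, had 391 and 334 CPM in bulk and 539, 445 and 359 CPM in GFP 1, 2 and 3, so that GFP 3 lay between the bulk libraries (log2 0.30, edgeR adjusted p = 0.608). Its share over Ldhb was 91.5 percent ± 0.046 (SD, n = 2) in bulk and 91.1 percent ± 1.81 (SD, n = 3) in GFP, per kilobase. Pdk1 makes a kinase that closes the way of pyruvate into mitochondria and is another HIF target. It had 69.3 and 54.2 CPM in bulk and 52.7 to 61.1 CPM in GFP, a log2 difference of -0.10 (edgeR adjusted p = 0.852).

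**Figure D3:**
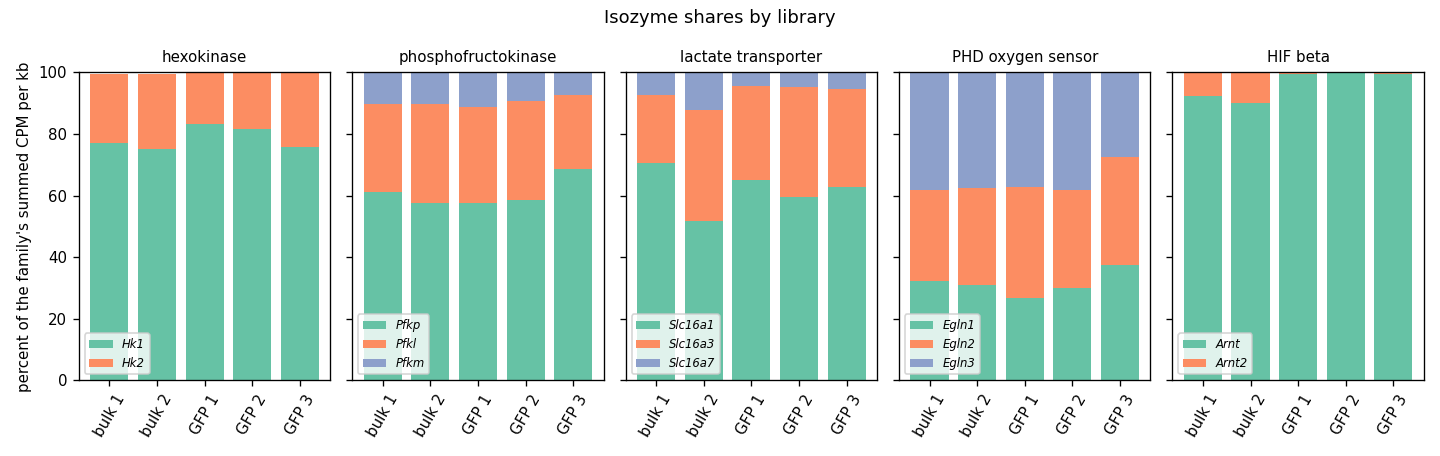
Share of each isozyme in the summed level of its family (CPM per kilobase of the longest coding transcript, percent) in each library. The HIF beta panel differs between the groups, with Arnt2 at 7.65 and 9.84 percent in bulk and under 1 percent in each GFP library.

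Among the oxygen sensing genes, Hif1a had 130.0 and 145 CPM in bulk 1 and 2 and 155, 156 and 186 CPM in GFP 1, 2 and 3, above bulk in every GFP library (log2 0.27, edgeR adjusted p = 0.565). With Epas1, the other main HIF alpha gene, it divided the family much alike in both groups, at 73.5 percent ± 2.17 (SD, n = 2) and 75.9 percent ± 3.35 (SD, n = 3) for Hif1a per kilobase. Egln1 (PHD2), the main hydroxylase of HIF alpha, had 90.9 and 89.3 CPM in bulk and 96.2, 116 and 110.0 CPM in GFP. Egln3 (PHD3), itself a HIF target, had 79.6 and 80.2 CPM in bulk and 99.8, 110.2 and 59.5 CPM in GFP 1, 2 and 3, so that GFP 1 and 2 were above and GFP 3 below both bulk libraries. Egln3 rose by 0.39 with the replicate block (edgeR adjusted p = 0.0186), in which GFP 3 has no part, and had an adjusted p of 0.812 without it. The 3 hydroxylase genes had similar levels per kilobase, each with 26.6 to 38.3 percent of the family in every library.

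Of the secreted factors, Vegfa varied little between libraries and Adm widely. Vegfa, which draws vessels, had 83.1 and 80.1 CPM in bulk and 91.8, 92.8 and 114 CPM in GFP 1, 2 and 3, a narrow separation (log2 0.29, edgeR adjusted p = 0.527). Adm encodes adrenomedullin, a peptide that widens vessels. It had 26.5 and 41.1 CPM in bulk 1 and 2 and 52.1, 85.2 and 35.99 CPM in GFP 1, 2 and 3, with GFP 3 between the bulk libraries. Its log2 difference was 0.77 ± 0.37 (SE; edgeR adjusted p = 0.374). With the block it rose by 1.01 (edgeR adjusted p = 1.16e-10), the largest rise of the 36 in that fit. Without a filter on low counts, Adm was the 1 gene of the 36 that edgeR called (adjusted p = 0.0350), where 5.84 percent of 32815 genes were called and 0.786 percent as higher.

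Carbonic anhydrases of the cell surface balance the acid that glycolysis makes. Car9, a widely used hypoxia marker, was the least abundant of the 36 genes per kilobase (0.572 CPM per kilobase in bulk and 1.15 in GFP), with 0.853 and 1.46 CPM in bulk 1 and 2 and 2.09, 1.98 and 2.90 CPM in GFP 1, 2 and 3, from 51 to 271 counts. Its log2 difference of 0.997 ± 0.39 (SE) was the largest of the 36 without the block (edgeR adjusted p = 0.256), and the groups did not overlap. Car12 had 78.9 and 87.6 CPM in bulk and 96.1, 117 and 94.1 CPM in GFP. With the replicate block both rose, Car9 by 0.83 (edgeR adjusted p = 0.00576) and Car12 by 0.35 (adjusted p = 0.0390).

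P4ha1, the catalytic subunit of collagen prolyl hydroxylase, had the smallest p of the 36. It had 41.9 and 44.1 CPM in bulk 1 and 2 and 59.1, 68.1 and 78.1 CPM in GFP 1, 2 and 3, a log2 difference of 0.67 ± 0.19 (SE; edgeR adjusted p = 0.115). Every GFP library was above both bulk libraries, and GFP 3 was here the highest library. P4ha2, its second form, had 7.94 and 11.0 CPM in bulk and 10.6 to 15.7 CPM in GFP, with an overlap of 1 library from each group. With the replicate block P4ha1 rose by 0.56 (edgeR adjusted p = 5.77e-04).

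Bnip3, which marks mitochondria for removal, had 13.5 and 8.97 CPM in bulk and 19.6, 16.8 and 14.6 CPM in GFP (log2 0.60 ± 0.26, SE; edgeR adjusted p = 0.307). It rose by 0.72 in the block fit (adjusted p = 7.34e-05). Higd1a, a protein of the inner mitochondrial membrane, had 68.3 and 50.9 CPM in bulk and 60.2 to 75.8 CPM in GFP. Ndrg1, a stress gene of differentiating epithelium, had 272 and 301 CPM in bulk and 364, 417 and 397 CPM in GFP 1, 2 and 3 (log2 0.45, edgeR adjusted p = 0.331), and rose by 0.45 with the replicate block (adjusted p = 0.0101). The genes of the suprabasal list summed to less in every GFP library, and the part of differentiating cells in the level of Ndrg1 was not tested. Ankrd37 had 3.98 and 2.16 CPM in bulk and 3.41 to 5.21 CPM in GFP, and rose by 0.52 with the block (edgeR adjusted p = 0.0316). Kdm3a, a histone demethylase, had 112 and 124 CPM in bulk and 126 to 149 CPM in GFP.

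Ddit4 and Mxi1 were the 2 hypoxia genes with log2 differences below 0. Ddit4 (REDD1), which restrains mTOR and also answers to glucocorticoids and stress, had 113 and 112 CPM in bulk and 119, 123 and 54.4 CPM in GFP 1, 2 and 3. GFP 3 alone set its sign: the log2 difference was -0.19 with that library and 0.10 without it. Mxi1, which antagonizes MYC, had 97.1 and 68.8 CPM in bulk and 71.1, 73.1 and 52.3 CPM in GFP (log2 -0.34, edgeR adjusted p = 0.542). Without GFP 3, 31 of the 36 genes were above 0 with a median of 0.31, and 0 were called by edgeR.

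**Figure D4:**
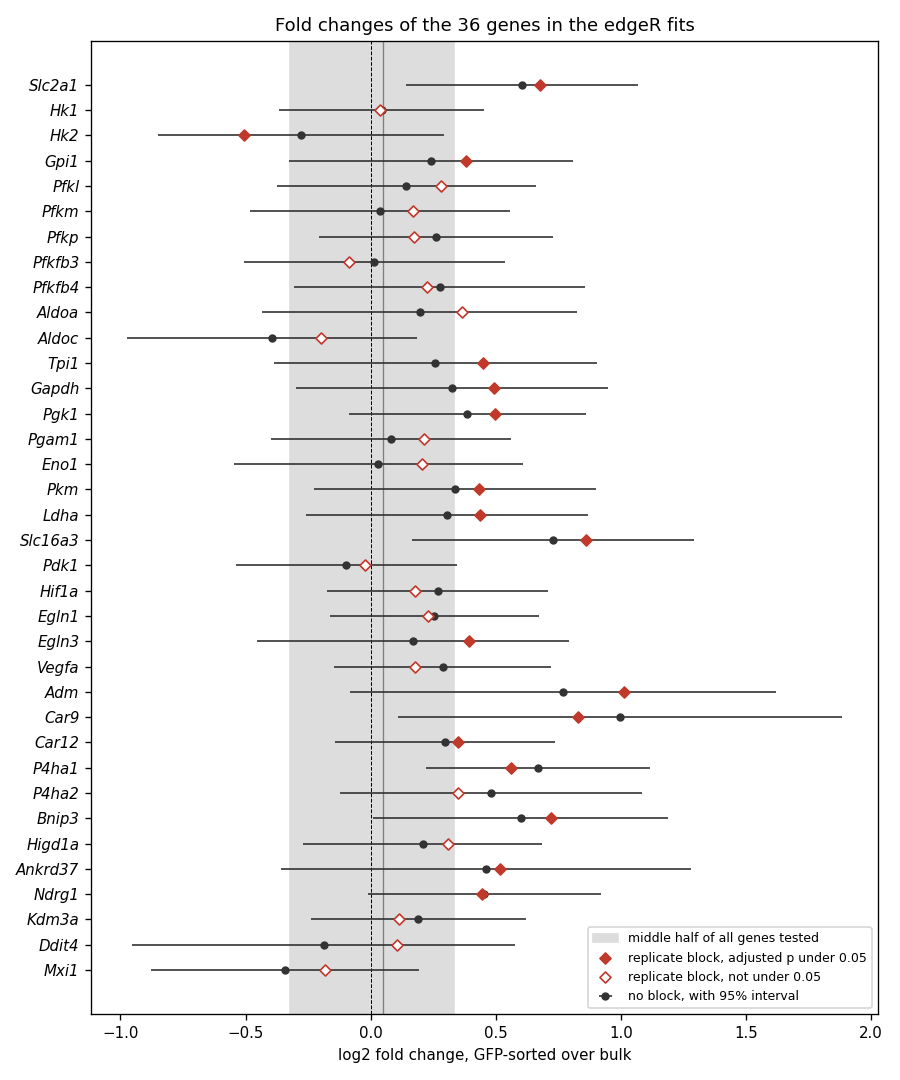
Log2 difference of GFP over bulk for the 36 genes without a block (black, with 95 percent interval) and with the replicate block (red, filled where the adjusted p is under 0.05), over the interquartile range of all tested genes (grey, -0.32 to 0.33). Filled red marks lie at 17 genes, all but Hk2 to the right of 0. The block fit called 16.4 percent of all tested genes as higher and 19.7 percent as lower, with 1 residual degree of freedom.

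The wider pathways were read from 6 lists of 111 other genes, of which 102 were tested, and 1 of these rose and 5 fell, where 0.145 percent of all tested genes rose and 5.14 percent fell. Hilpda, a lipid droplet protein and HIF target, had 8.95 and 9.09 CPM in bulk 1 and 2 and 25.96, 22.5 and 18.1 CPM in GFP 1, 2 and 3 (log2 1.30 ± 0.23, SE; edgeR adjusted p = 0.0159). It was higher than bulk in all 3 GFP libraries, and the log2 difference was 1.29 without bulk 1 (adjusted p = 0.127) and 1.30 without bulk 2 (adjusted p = 0.143). In those fits the 1 bulk library left is assumed to vary like the GFP libraries. Of the 35 hypoxia genes tested beside the 16, Hilpda and Selenbp1 were the ones called by edgeR, with a median log2 difference of 0.04 over the list. At an unadjusted edgeR p under 0.05 there were 13, 7 of them higher in GFP. By that rule 15.8 percent of all tested genes passed, 4.28 percent as higher. DESeq2 called 3 of the 35 as higher and 2 as lower, where it called 8.06 percent of all genes.

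Of the genes that fell, Arnt2 and Fbp1 differed most. Arnt2, a partner of HIF alpha known mainly from neurons, had 6.62 and 8.94 CPM in bulk 1 and 2 and 0.393, 0.272 and 0.418 CPM in GFP 1, 2 and 3 (log2 -4.42 ± 0.33, SE; edgeR adjusted p = 3.61e-04). Arnt, its common counterpart, had 55.5 and 56.8 CPM against 48.2 to 55.0 CPM, and made up 91.3 percent ± 1.55 (SD, n = 2) of the pair per kilobase in bulk and 99.5 percent ± 0.118 (SD, n = 3) in GFP. Fbp1, which reverses the phosphofructokinase step, had 6.44 and 9.85 CPM in bulk and 0.431, 0.528 and 0.343 CPM in GFP (log2 -4.24 ± 0.34, SE; edgeR adjusted p = 4.62e-04). Both calls held without each library in turn. The 17 hair matrix genes, with a median log2 difference of -5.70, fell along with them, and the part of such cells in these differences was not tested. In the upstream windows of Arnt2 and Fbp1 there was no ACGTG or GCGTG. Among other genes that fell, the window of Selenbp1 had 3 matches and that of G6pdx had 1.

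G6pdx, the X-linked entry enzyme of the pentose phosphate pathway, had 73.8 and 93.0 CPM in bulk and 48.6, 44.7 and 40.1 CPM in GFP 1, 2 and 3 (log2 -0.91 ± 0.19, SE; edgeR adjusted p = 0.0325). Without GFP 3, the library with high Xist, the log2 difference was -0.84 (edgeR adjusted p = 0.0420). Selenbp1, a methanethiol oxidase, had 20.1 and 25.7 CPM in bulk and 9.36, 8.61 and 3.54 CPM in GFP (log2 -1.68 ± 0.39, SE; edgeR adjusted p = 0.0482). Neither passed without either bulk library, where 1 bulk library is left, or without GFP 2, with adjusted p from 0.0624 (Selenbp1 without GFP 2) to 0.333 (G6pdx without bulk 2). The log2 differences in these fits were -0.74 to -1.06 for G6pdx and -1.50 to -1.84 for Selenbp1. G6pdx did not pass without GFP 1 either (log2 -0.98, adjusted p = 0.0582).

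**Figure D5:**
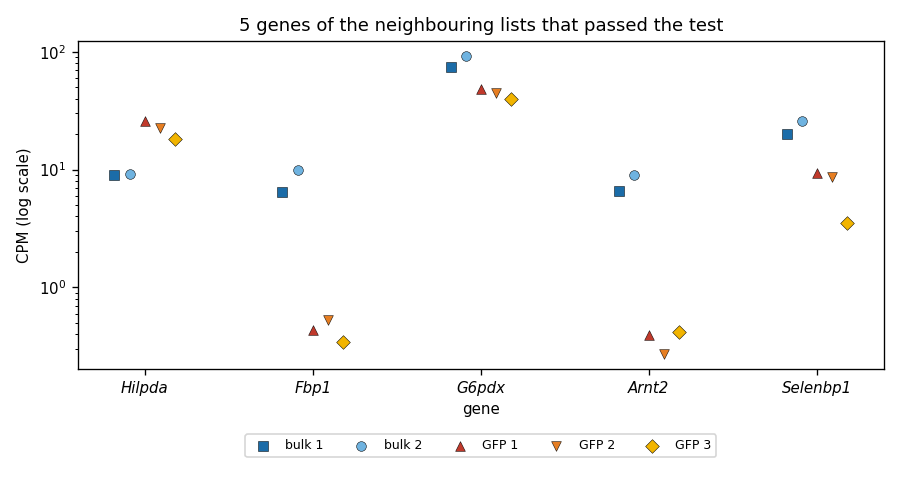
CPM (log axis) in each library of 5 genes of the surrounding pathways with an edgeR adjusted p under 0.05. Hilpda is higher in all 3 GFP libraries, and Fbp1, G6pdx, Arnt2 and Selenbp1 are lower in all 3.

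In the lists for pyruvate and glycogen edgeR called 0 genes, where it called 5.28 percent of all tested genes. The 13 genes for entry of pyruvate into mitochondria had a median log2 difference of 0.31, with 11 above 0. Of these, 2 had an unadjusted edgeR p under 0.05. Of all tested genes, 54.4 percent were above 0 (median 0.05) and 15.8 percent had an unadjusted p under 0.05 (4.28 percent as higher). Pdhb, a subunit of pyruvate dehydrogenase, had 87.3 and 71.9 CPM in bulk and 95.7 to 122 CPM in GFP (edgeR adjusted p = 0.308), and Pdp1, the phosphatase that switches the complex on, 13.6 and 10.7 CPM against 17.0 to 19.1 CPM (adjusted p = 0.204). DESeq2 and limma-voom called 0 of this list too, where they called 8.06 and 5.52 percent of all genes. With the replicate block 7 of the 13 were called, all higher. That fit called 16.4 percent of all genes as higher and 36 percent in either direction. The 10 glycogen genes had a median of 0.18, with 1 at an unadjusted p under 0.05, namely the branching enzyme gene Gbe1 (9.64 and 13.2 CPM in bulk, 16.5 to 18.8 CPM in GFP, edgeR adjusted p = 0.216). DESeq2 and limma-voom called 0 of them, and the block 5, 4 higher and 1 lower, against the same shares of all genes and 19.7 percent as lower. Pdha1 and Pgm2, next in these lists by smallest p, had edgeR adjusted p of 0.331 and 0.433. Of the 15 tested genes that regulate HIF, with a median of 0.07, Arnt2 was the 1 called. Egln2 (PHD1) had 49.2 and 53.1 CPM in bulk and 60.7 to 76.9 CPM in GFP (edgeR adjusted p = 0.292), and Hif1an, the asparagine hydroxylase that blocks HIF transactivation, 50.9 and 57.6 CPM against 31.2 to 39.9 CPM (adjusted p = 0.124).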

How the data were processed

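The authors deposited raw counts by Ensembl gene ID for 5 libraries. STAR and the build GRCm39 are named in the submitters' processing notes. The sources used here give no versions, counter, annotation or strandedness, so overlapping and antisense genes cannot be told apart. Symbols came from GENCODE M21 by gene ID (52073 of 56691 matched), and promoters from RefSeq on GRCm38.p6.

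Counts were tested with edgeR 4.0.16 (R 4.3.3): filterByExpr (minimum count 10, minimum total 15), TMM scaling, a group term, the two-sided quasi-likelihood test and Benjamini-Hochberg adjustment over all 18583 genes at 0.05, with 3 residual degrees of freedom. DESeq2 1.42.0 and limma 3.58.1 (voom) were alternatives, as were other scalings and filters, a loess trend on transcript length and GC content (span 0.3) as an offset, a replicate block, and fits without each library. Levels are TMM-scaled CPM. Levels per kilobase use the longest coding transcript in M21. The choice of transcript affects them.

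Title numbers 4143 (bulk 1, GFP 1) and 4145 (bulk 2, GFP 2) were read as naming the animal, although no label says so. The libraries of a pair also carry different labels, WT for bulk and genotype Lrig1 positive for GFP. Whether both came from the same animal cannot be told from the labels. Across genes, bulk 1 minus bulk 2 correlated with GFP 1 minus GFP 2 (Pearson r = 0.457; genes are not independent replicates). Replicates differed beyond sampling noise (chi-square from 149.7 to 457.5 per degree of freedom).

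The edgeR step was tested on simulated data. It recovered 12 of 95 genes set to change 2-fold and 70 of 97 set to change 4-fold. It also called 15 genes that were set not to change. The 36 genes and the lists were chosen with earlier results of these data known. All 36 are named. Of each pathway list the rule was to name the called genes or, failing that, the 3 with the smallest p. Some genes so named are not reported here. Egln2 and Hif1an were added after their values were seen, and isozyme partners for the shares. Marker lists are given as summed levels.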

Additional observations from a re-analysis of the deposited data

How the results depend on the processing

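The counts depended most on the model. Over all genes 982 passed, against 1498 by DESeq2, 1918 without a filter on low counts, and 480 to 1205 when 1 library was left out. With the replicate block, which pairs libraries by title number, 6692 passed, and 6247 when the trend with length and GC content was removed as well. For the glycolysis genes, 0 became 1 by DESeq2, 9 with the block, 1 with the trend removed and 8 with both; leaving out a library gave 0 to 0. For the hypoxia genes, 0 became 1 by DESeq2, 1 without a filter (Adm, adjusted p = 0.0350), 8 with the block and 9 with both; leaving out a library gave 0 to 0. For the pathway lists, 6 became 10 by DESeq2, 13 without a filter, 56 with the block, 54 with both and 2 to 9 with 1 library left out. The cause of these shifts was not tested. The block fit takes nothing from GFP 3. Leaving out GFP 3 without a block gave 1205 over all genes and 0 of the 36.

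With 2 bulk libraries the test has little power for changes of the size seen here. The main estimates for the 36 genes were under 2-fold, though Adm, Car9 and Slc16a3 exceeded 2-fold under some alternatives (log2 up to 1.11, 1.43 and 1.04). So an adjusted p over 0.05 does not show equal levels. The log2 difference changed sign under at least 1 alternative for Pfkfb3 (7 of 17), Eno1 (5), Pfkm, Pgam1 and Ddit4 (3 each), Hk1 and Pdk1 (2 each), Pfkl and Egln3 (1 each). The sort and the mixture of cells cannot be told apart from Lrig1 status. None of the genes named here that passed the test in the main comparison changed sign under the alternatives run. Signs were not followed for the other genes that passed.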
